A study of Mus musculus with 21 samples.

Results

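The RNA of 9 genes of the DNA methylation machinery was followed through acquired resistance of mouse pancreatic cancer cells to a MEK inhibitor and through withdrawal of the drug. They were taken by symbol from the deposited table of gene-level normalized counts, in which 9 of 34478 rows carry the names Dnmt1, Uhrf1, Dnmt3a, Dnmt3b, Dnmt3l, Tet1, Tet2, Tet3 and Mbd2. Of these, 8 reached 10 normalized counts in at least 3 samples and were tested, and Dnmt3l did not. The table holds RNA levels only, and DNA methylation was not analysed here.

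The samples were 6 primary pancreatic ductal adenocarcinoma (PDAC) cell lines, numbered #3, #4, #6, #7, #9 and #10, each from a tumour of a mouse whose alleles include Ptf1awt/Cre and Trp53loxP/loxP. In this model the Cre recombinase is driven from the pancreatic Ptf1a locus and deletes the floxed Trp53 alleles, so that every sample, the controls included, carries these alleles. RNA of 4 cell states was sequenced. Parental cells (6 samples) had not met the drug, resistant cells (6 samples) grew in trametinib, an inhibitor of the kinases MEK1 and MEK2, at 100 times the IC50 of their line, and P5 (3 samples, lines #3, #7 and #9) and P12 (6 samples) had been kept free of the drug for 5 and 12 passages. A second label of the P5 samples of lines #7 and #9 gives 12 drug-free passages. Their titles give P5, and the methods of the study name P5 cells of lines #3, #7 and #9, so they were kept as P5. The P5 sample of line #3 is the only one whose labels agree. There was 1 sample per line and state, and the lines served as replicates. A resistant culture may be dominated by 1 clone of its line, which the table does not show.

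The estimated depth lay between 24.0 and 42.4 M reads per sample, and 3 reads corresponded to 2.32 to 4.10 normalized counts. Dusp6, a phosphatase that is transcribed when ERK is active, lay between 5249 and 9449 normalized counts in parental cells, between 4.49 and 681 in resistant cells and between 5098 and 16848 at P12, so the drug state of the labels was visible in every line. Trp53 gave 178 to 475 normalized counts in all 21 samples, which checks nothing, because a gene-level sum also counts the exons outside the deletion. The epithelial marker Epcam was listed at 0 in all but 1 sample, where it reached 3.61. The keratins Krt8, Krt18 and Krt19 had medians of 79653, 56911 and 35795 normalized counts in parental cells. Their medians in resistant cells were 14264, 13349 and 28692. The summed counts of 8 ductal and epithelial markers lay between 18366 and 284718 in parental and between 1693 and 211587 in resistant cells, and those of 8 fibroblast and stellate markers between 100.4 and 11395 in parental and between 1943 and 512560 in resistant cells. Cdh1, the epithelial cadherin, had medians of 30049 normalized counts in parental, 58.4 in resistant and 2162 in P12 cells, and fell in resistant cells by 7.11 on the log2 scale (SE 1.92, limma adjusted p = 0.0173). Leukocyte markers summed to 136 to 423 normalized counts over all states. Within this list Cd68 gave 118 to 404 normalized counts and Ptprc 3.02 to 20.0. The part of these shifts in the levels of the methylation genes was not tested. In bulk RNA, fewer cells of a kind and less RNA per cell cannot be told apart.

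DNA methylation in mammals is placed mainly on the cytosine of CpG dinucleotides. Dnmt3a and Dnmt3b set new methyl groups, with Dnmt3l as a catalytically inactive helper that is mostly found in germ cells and early embryos. After each round of replication, Uhrf1 recognizes DNA that carries the mark on 1 strand and brings in Dnmt1, which copies it to the new strand. Tet1, Tet2 and Tet3 oxidize the methyl group in a reaction that uses iron and 2-oxoglutarate, and Mbd2 binds methylated CpGs and brings in the repressive NuRD complex. Nucleoside analogues such as decitabine act by trapping the methyltransferases on DNA.

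An annotated promoter of each maintenance gene carries letters of the E2F motif. These sequences are shown because the RNA of both genes followed that of replication genes in most lines between resistant and parental cells, as the values by line show. A part of E2F in these levels was not tested. The RefSeq table for GRCm38.p6 holds 15 windows for 8 of the 9 genes, each of 250 bases before and 50 bases after an annotated start. They were searched on both strands for TTTGGCGC, TTTCCCGC, TTTGCCGC and TTTCGCGC (E2F), TGAGTCA (AP-1) and CCGGAAG (ETS). E2F letters were present in 2 of the 15 windows, one of Dnmt1 and one of Uhrf1, and in 2.26% of all 32851 windows. Each E2F string holds a CpG, and the share was not taken over windows of like CpG content. The first 2 windows of Dnmt3a overlap, so the 15 are not all separate. AP-1 and ETS letters were present in none of the 15 windows, and in 5.20% and 8.86% of all windows. A match of letters is a description and shows no binding. The stretches around the 3 matches are given 5′ to 3′ on the strand of the gene, with the matching letters in capitals. The first lies on the minus strand at chr9:20952824-20952853, 219 bases before the third annotated start of Dnmt1 and inside the first exon of another Dnmt1 transcript, and matches as the reverse complement.
Dnmt1, before the start: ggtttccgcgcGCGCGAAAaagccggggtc
The second lies on the minus strand at chr9:20952574-20952601, 34 bases after the same start.
Dnmt1, after the start: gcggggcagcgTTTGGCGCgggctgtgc
The third is shown within the 250 bases before the second annotated start of Uhrf1, on the plus strand at chr17:56304063-56304312, between 2 annotated exons of a longer Uhrf1 transcript. Its match begins 185 bases before the start.
Uhrf1, before the start: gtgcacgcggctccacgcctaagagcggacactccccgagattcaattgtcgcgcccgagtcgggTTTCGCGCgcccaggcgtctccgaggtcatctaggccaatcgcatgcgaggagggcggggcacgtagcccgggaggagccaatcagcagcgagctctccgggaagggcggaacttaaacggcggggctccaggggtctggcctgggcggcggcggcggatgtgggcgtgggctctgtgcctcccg
Both windows are rich in CpG, with 33 CpGs in 300 bases against a median of 7 over all windows. The windows of the other genes held 46, 47 and 18 CpGs for Dnmt3a, 30 for Dnmt3b, 17 for Tet1, 57 for Tet2 and 22 for Tet3, whereas the 3 windows of Dnmt3l held 6, 4 and 3.

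Levels of different genes were compared as normalized counts per kb of annotated exon sequence. In parental cells the maintenance pair stood highest, with means of 1772 per kb for Uhrf1 (SD 517, n = 6) and 1393 per kb for Dnmt1 (SD 341, n = 6), whose ranges over lines overlapped. Mbd2 followed with 685 per kb (SD 118, n = 6) and Tet3 with 241 per kb (SD 38.4, n = 6), and neither range overlapped that of the next gene in the order. Dnmt3a and Tet2 were at 108 and 102 per kb and overlapped, as did Dnmt3b at 19.6 and Tet1 at 8.17 per kb. Per kb, RNA was thus most abundant for the maintenance genes, Tet3 was the highest of the Tet genes, and Dnmt3b and Tet1 were scarce. The order was the same in resistant cells, where the means ran from 1327 per kb for Uhrf1 to 2.74 per kb for Tet1 and the ranges of all neighbours among the tested genes overlapped. At P12 Tet2 (mean 123 per kb) stood before Dnmt3a (mean 82.2 per kb), with overlapping ranges. At P5 Tet2 (120 per kb) and Dnmt3a (71.4 per kb) stood in the same order and their ranges did not overlap. Dnmt3l was listed at 0 in 19 of 21 samples and reached 0.770 normalized counts in parental line #7 and 2.52 in resistant line #9, in no sample more than 3 reads. Dnmt3c, the rodent paralogue used in male germ cells, was listed at 0 in 20 samples and at 1.02 in the remaining one.

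**Figure D1:**
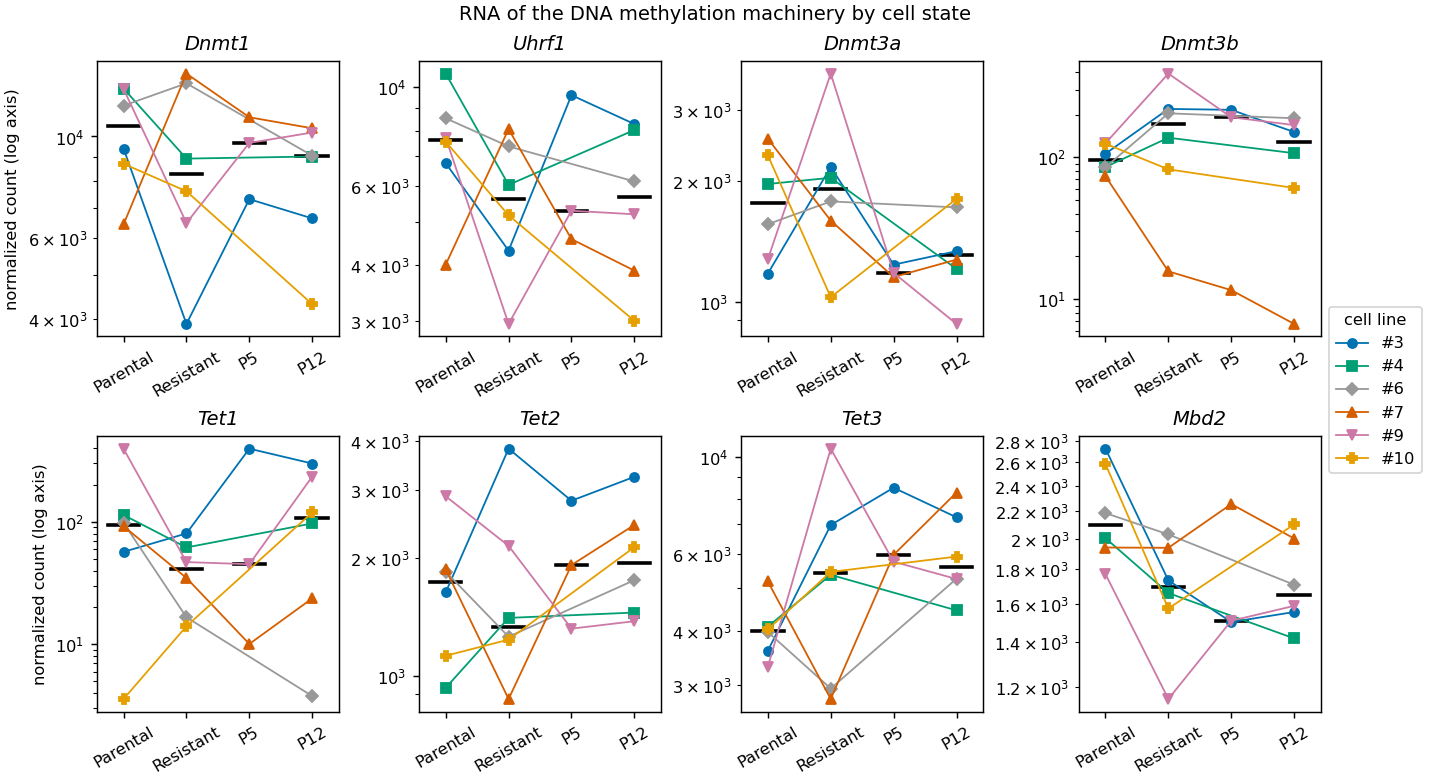
Normalized counts of the 8 tested genes on a log axis, with 1 panel per gene, the 4 cell states along the horizontal axis, 1 colour and symbol per cell line and a black bar at the median of each state. The coloured lines join the states of a cell line and cross each other in most panels; for Mbd2 all 6 lines are lower in the resistant state, and for Dnmt3b line #7 leaves the other lines.

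Comparing the 4 states over all lines, none of the 8 tested genes differed by the test. The test was limma on log2(normalized count + 1) with Benjamini-Hochberg adjustment over 19300 genes and a threshold of 0.05 on the adjusted p. Between resistant and parental cells 0 of 8 genes passed, where 15.6% of all tested genes passed. An unadjusted p under 0.05 was reached by 1 of 8 (Mbd2) and by 29.2% of all genes. Blocked by cell line, 26% of all genes and again 0 of the 8 passed. Between P12 and resistant cells 0 of 8 passed (6.22% of all genes, and 12.7% with the block), and none had an unadjusted p under 0.05. Between P12 and parental cells 0 of 8 passed (0.658% of all genes, and 5.32% with the block), with 2 of 8, Tet3 and Mbd2, at an unadjusted p under 0.05. Between P5 and resistant cells 0 of 8 passed, where 2.07% of all genes did, with Dnmt3a alone at an unadjusted p under 0.05. Between P5 and parental cells 0 of 8 passed, where 0.0466% of all genes did, with Tet3 alone at an unadjusted p under 0.05. By the thresholds of the study, an adjusted p below 0.01 and a log2 change beyond 1, none of the 8 passed in any comparison. Of all genes 5.3% passed them between resistant and parental cells, 2.13% between P12 and resistant cells, 0.114% between P12 and parental cells, 0.378% between P5 and resistant cells and 0.0259% between P5 and parental cells. The median absolute resistant minus parental log2 difference was 0.33 over the 8 genes and 0.50 over all tested genes.

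**Figure D2:**
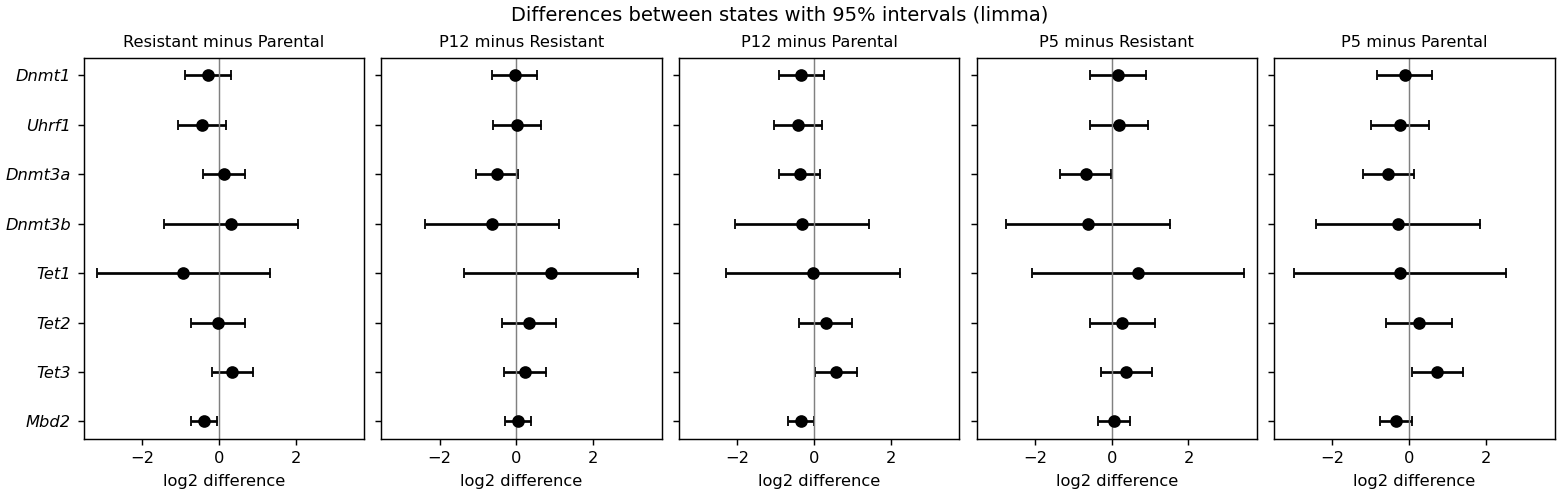
Log2 differences of the 8 tested genes in 5 comparisons between states, with 1 panel per comparison, points at the limma estimate and bars for the 95% interval. The bars of Mbd2 are the shortest and those of Tet1 the longest, from -3.18 to 1.33 for resistant minus parental.

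Dnmt1, the maintenance methyltransferase (chr9:20907209-20959888, minus strand, GRCm38), gave between 6435 and 12719 normalized counts in parental cells, with a median of 10540. In resistant cells it gave between 3905 and 13708, with a median of 8274. Both extremes of the resistant range lay outside the parental range, the lowest in line #3 and the highest in line #7. At P5 Dnmt1 gave 7301 normalized counts in line #3, 11011 in #7 and 9684 in #9, all inside the parental range. At P12 it gave between 4312 (line #10) and 10420 (line #7), with a median of 9063. The resistant minus parental log2 difference was -0.28 (SE 0.28, 95% interval -0.87 to 0.31, limma adjusted p = 0.555), with 4 lines lower and 2 higher. Between P12 and parental cells it was -0.33 (interval -0.92 to 0.26, adjusted p = 0.599), with 5 of 6 lines lower.

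Uhrf1, which brings Dnmt1 to newly replicated DNA (chr17:56303321-56323486, plus strand), gave between 4010 and 10726 normalized counts in parental cells, with a median of 7630. In resistant cells it gave between 2955 (line #9) and 8059 (line #7), with a median of 5608, and the 2 ranges overlapped in most of their length. At P5 it gave 9599 in line #3, 4573 in #7 and 5293 in #9, and at P12 between 3002 (line #10) and 8271 (line #3). Uhrf1 was lower in resistant than in parental cells in 5 of 6 lines, with a log2 difference of -0.43 (SE 0.30, interval -1.05 to 0.18, limma adjusted p = 0.356), and higher in line #7 alone. The difference between P12 and resistant cells was 0.01 (interval -0.61 to 0.63, adjusted p = 0.991), with 3 lines higher and 3 lower.

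The 2 maintenance genes were set beside a list of 23 replication genes in each line. The list holds the Mcm2 to Mcm7 helicase subunits, Pcna, ribonucleotide reductase, thymidylate synthase and other genes of S phase. Between resistant and parental cells of line #9 Dnmt1 differed by -0.97 and Uhrf1 by -1.38 on the log2 scale, beside a median of -0.95 over the list, of which 0 of 23 genes were higher. In line #3 the values were -1.27 for Dnmt1, -0.65 for Uhrf1 and -0.77 for the list. Line #7 went the other way, with 1.09 for Dnmt1, 1.01 for Uhrf1 and 0.98 for the list, of which 22 of 23 genes were higher. The share of all genes that were higher in a line is not given here, so such counts are a description. Line #4 showed -0.51, -0.83 and -0.65 for Dnmt1, Uhrf1 and the list, line #6 0.16, -0.21 and 0.08, and line #10 -0.20, -0.55 and -0.46. Lines #3, #4, #9 and #10 were thus below their parental level on all 3 measures and line #7 above it. Between P12 and resistant cells the list median was 0.44 in line #3 and 0.78 in line #9, where Uhrf1 differed by 0.94 and 0.81, and -0.72 in line #7, where Uhrf1 differed by -1.05. Line #10 showed -0.82 for Dnmt1, -0.78 for Uhrf1 and -0.85 for the list in this comparison. Between P12 and parental cells Uhrf1 went against the list in line #3 (0.29, list -0.16) and line #7 (-0.04, list 0.37). In lines #4, #6, #9 and #10 all 3 measures were lower at P12 than in parental cells. The values of a line share its libraries, the proliferation of the cultures was not measured here, and its part in the levels of Dnmt1 and Uhrf1 was not tested. Over all lines, 0 of the 23 replication genes were higher and 2 were lower in resistant cells by limma, where 7.73% of all tested genes were higher and 7.9% lower. The 2 were the subunit of ribonucleotide reductase Rrm2 (log2 change -1.39, SE 0.39, adjusted p = 0.0208) and the thymidine kinase Tk1 (-1.20, SE 0.24, adjusted p = 0.00284).

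**Figure D3:**
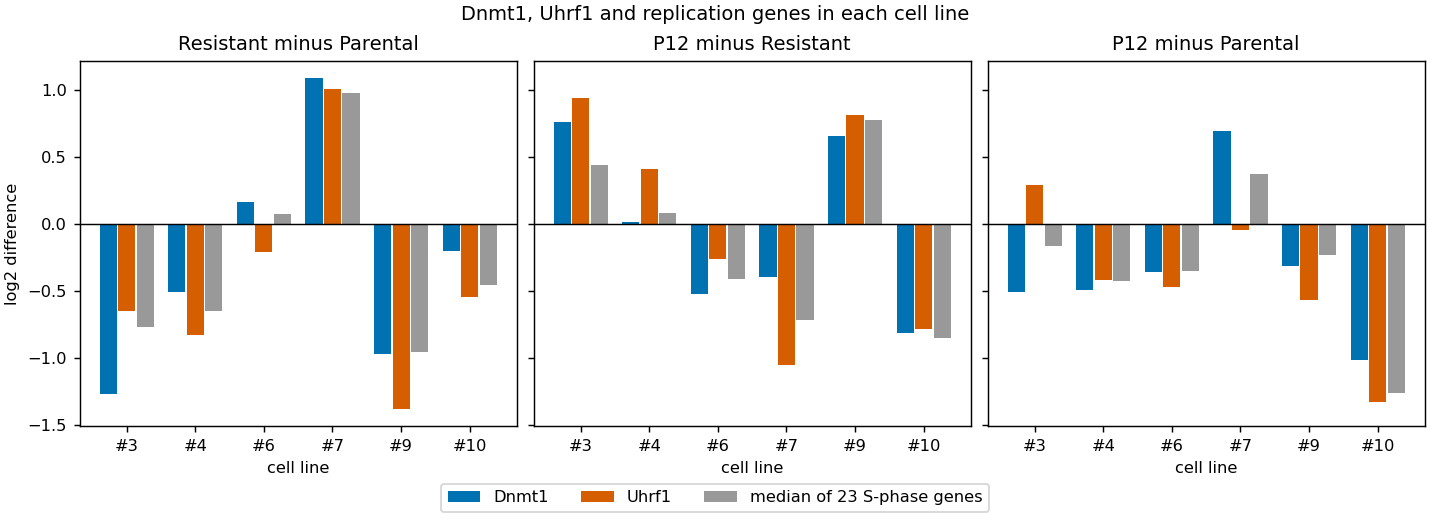
Log2 differences of Dnmt1 and Uhrf1 within each cell line, beside the median log2 difference of 23 replication genes, as bars from 0, for 3 comparisons between states. The 3 bars of a line lie on the same side of 0 in most cases; between resistant and parental cells they reach 0.98 to 1.09 in line #7 and -0.95 to -1.38 in line #9.

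The genes whose log2 levels were most like those of the maintenance pair over all 21 samples included Chaf1a (Pearson r = 0.95) and Ppil1 (0.88) for Uhrf1, and Zw10 and Kif4 (0.87 each) for Dnmt1. Chaf1a encodes the large subunit of the histone chaperone CAF-1, and Kif4 a kinesin of mitotic chromosomes. These correlations describe 21 samples that come from 6 lines, and were chosen as the highest among all tested genes. For Dnmt3a the closest were Gpam, Syne2 and Icosl (0.74, 0.72 and 0.71), for Tet1 Gm13031, Syt2 and Ubox5 (0.78, 0.77 and 0.76), for Tet2 Olfr1423, AC158605.3 and Neil1 (0.84, 0.83 and 0.83) and for Tet3 Gm43059, Gm43756 and Olfr1336 (0.84, 0.84 and 0.83).

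Dnmt3a, the de novo methyltransferase of somatic cells (chr12:3806007-3914443, plus strand), gave between 1174 and 2543 normalized counts in parental cells, with a median of 1760. In resistant cells the range widened to between 1026 (line #10) and 3692 (line #9), with a median of 1904. The resistant value of line #9 was the highest of all 21 samples, and that line held the lowest one, 880, at P12. At P5 the 3 lines lay close together, at 1236 in line #3, 1151 in #7 and 1179 in #9, near or below the lower end of the parental range. At P12 Dnmt3a gave between 880 and 1801 normalized counts, with a median of 1304. The resistant minus parental log2 difference was 0.13 (SE 0.26, interval -0.41 to 0.68, limma adjusted p = 0.782), with 4 lines higher and 2 lower. Between P12 and resistant cells it was -0.51 (interval -1.06 to 0.03, adjusted p = 0.289), lower in 5 of 6 lines. Between P5 and resistant cells it was -0.68 (interval -1.34 to -0.01, adjusted p = 0.316), lower in 3 of 3 lines, a count that 14.2% of all genes reached. In line #3, whose labels agree on P5, it was -0.81.

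Dnmt3b, the second de novo enzyme (chr2:153649450-153687730, plus strand), was a low-level gene in which line #7 stood apart. In parental cells it gave between 73.7 and 126 normalized counts, with a median of 95.8 and with line #7 lowest. In resistant cells it gave 220 in line #3, 138 in #4, 205 in #6, 390 in #9 and 82.4 in #10, and 15.7 in #7. The levels in line #7 were 11.6 at P5 and 6.68 at P12, against 217 and 192 in the other lines at P5 and 60.8 to 189 at P12. Line #7 thus had less Dnmt3b RNA in each later state, and 4 of the other 5 lines had more of it in the resistant than in the parental state. The resistant minus parental log2 difference was 0.31 (SE 0.83, interval -1.43 to 2.05, limma adjusted p = 0.848) and 0.80 without line #7 (adjusted p = 0.180). Over all fits without 1 line it ran from 0.045 to 0.80. Between P12 and resistant cells Dnmt3b was lower in 6 of 6 lines, by -0.12 to -1.20 on the log2 scale, as were 8.2% of all genes. The mean of -0.63 (interval -2.37 to 1.11) had an adjusted p of 0.748 in limma and 0.420 with the line as a block. That interval is from the fit without the block and includes the spread between lines. The 6 differences within lines had an SD of 0.44. The line accounted for 68.9% of the variance of Dnmt3b over 18 samples and the state for 3.98%, and without line #7 the shares were 42.7% and 25.8%. The closest patterns over 21 samples were those of Kctd15, Clstn1 and Tiam1 (Pearson r = 0.93 each).

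Dnmt3a and Dnmt3b went in the same direction between parental and resistant cells in 6 of 6 lines, up in value in lines #3, #4, #6 and #9 and down in lines #7 and #10. Their correlation over all 21 samples was nevertheless weak, with a Pearson r of 0.28. Dnmt1 and Tet3 went in opposite directions in all 6 lines, and Dnmt1 and Uhrf1 in the same direction in 5 of 6. With 28 pairs of genes compared over 6 lines, these counts are a description.

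Tet1 (chr10:62804570-62908996, minus strand), known from embryonic stem cells, was the scarcest of the tested genes. In parental cells it gave between 3.58 (line #10) and 394 (line #9) normalized counts, with a median of 94.9, so that the lowest value was near that of 3 reads. In resistant cells it gave between 14.1 and 80.3, with a median of 40.8, and all 6 values lay inside the parental range. At P5 it gave 395 in line #3, 10.1 in #7 and 45.1 in #9, and at P12 299, 96.9, 3.79, 23.7, 234 and 119 in lines #3, #4, #6, #7, #9 and #10. Line #9 was lower in the resistant state and at P5 than in parental cells and at P12, line #3 was highest after withdrawal, and lines #6 and #7 were at P12 far below their parental levels. Line #10 was at P12 (119) far above its parental level (3.58). The resistant minus parental log2 difference was -0.93 (SE 1.08, interval -3.18 to 1.33, limma adjusted p = 0.620), an interval that holds both lower and higher values. Without line #10, whose parental value is the lowest, it was -1.46, and over all fits without 1 line it ran from -1.46 to -0.50.

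Tet2 (chr3:133463679-133545139, minus strand), a frequent target of mutation in blood cancers, gave between 933 and 2885 normalized counts in parental and between 873 and 3818 in resistant cells, with medians of 1743 and 1335. Line #3 was highest in the resistant state and line #7 lowest, and 3 lines were higher and 3 lower than their parental cells. The log2 difference was -0.02 (SE 0.33, interval -0.72 to 0.68, limma adjusted p = 0.979). At P5 Tet2 gave 2810 in line #3, 1923 in #7 and 1322 in #9, and at P12 between 1381 and 3235 with a median of 1948. Between P12 and parental cells the log2 difference was 0.30 (interval -0.40 to 1.00, adjusted p = 0.701).

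Tet3 (chr6:83362373-83459084, minus strand), the most abundant of the oxidases here, was higher in P12 than in parental cells in 6 of 6 lines. In parental cells it gave between 3302 and 5182 normalized counts, with a median of 3996. In resistant cells the range was 2787 (line #7) to 10443 (line #9), with a median of 5408, and enclosed the parental range on both sides. At P5 it gave 8499 in line #3, 5964 in #7 and 5751 in #9, all above every parental sample. This was the only case among the 8 genes and 5 comparisons in which the groups did not overlap, and 5.39% of all genes did not overlap between P5 and parental cells. At P12 it gave between 4450 and 8286, with a median of 5584, and each line was above its own parental sample, as in 6.46% of all genes. The difference between P12 and parental cells within a line ran from 0.12 (line #4) to 1.02 (line #3) on the log2 scale. The mean was 0.57 (SE 0.26, interval 0.03 to 1.12), with an unadjusted p of 0.0388 and a limma adjusted p of 0.296, and 0.208 with the line as a block. Between P5 and parental cells it was 0.73 (interval 0.07 to 1.40, adjusted p = 0.441), and between resistant and parental cells 0.35 (interval -0.19 to 0.90, adjusted p = 0.394). An antisense transcript, B230319C09Rik, overlaps Tet3 and reached at most 21.7 normalized counts. A further annotated gene, 5430434F05Rik, overlaps Tet3 on the same strand and reached at most 41.6.

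Mbd2 (chr18:70568189-70626131, plus strand), the methyl-CpG reader, was lower in resistant than in parental cells in 6 of 6 lines, as were 9.49% of all genes. In parental cells it gave between 1770 and 2724 normalized counts, with a median of 2093, and in resistant cells between 1152 (line #9) and 2028 (line #6), with a median of 1695. The 2 ranges overlapped, and the size of the difference varied: lines #10, #3 and #9 differed by -0.72, -0.65 and -0.62 on the log2 scale, lines #4 and #6 by -0.27 and -0.11, and line #7 by -0.0014. The mean difference was -0.39 (SE 0.16, interval -0.73 to -0.05), with an unadjusted p of 0.0253 and a limma adjusted p of 0.108, which did not pass. With the line as a block the adjusted p was 0.0519, and over all alternatives it ran from 0.0512 to 0.282. At P5 Mbd2 gave 1501 in line #3, 2252 in #7 and 1508 in #9, and at P12 between 1419 and 2100, with a median of 1647. The difference between P12 and resistant cells was 0.05 (interval -0.29 to 0.39, adjusted p = 0.913), and that between P12 and parental cells -0.35 (interval -0.69 to -0.01, adjusted p = 0.319), lower in 5 of 6 lines. Of the 8 genes Mbd2 had the largest share of variance between states, 36.7%, beside a median of 19.8% over all tested genes, and the smallest spread of the line differences. The genes with the closest patterns were Arpc2 (Pearson r = 0.91 over 21 samples), a subunit of an actin nucleating complex, Mcu, the mitochondrial calcium channel, and D1Ertd622e (0.86 each).

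Seen by line, lines #3 and #9 differed from line #7 in the direction of 5 of the 8 genes between parental and resistant cells. Lines #3 and #9 had lower Dnmt1 and Uhrf1 and higher Dnmt3a, Dnmt3b and Tet3 in the resistant state, whereas line #7 had higher Dnmt1 and Uhrf1 and lower values of Dnmt3a, Dnmt3b and Tet3. Tet1 and Tet2 were lower in both line #7 and line #9 and higher in line #3, and Mbd2 was lower in all 3 lines. Differences of more than 2-fold occurred in 17 of 48 combinations of gene and line, and in 38.8% of all genes by line. Line #7 and line #9 held 5 each, line #3 held 3, lines #6 and #10 held 2 each and line #4 held none. With 1 sample per line and state, a difference within a line has no replicate of its own. Leaving out line #7 moved the mean differences to -0.56 for Dnmt1 (limma adjusted p = 0.208), -0.72 for Uhrf1 (adjusted p = 0.105) and 0.60 for Tet3 (adjusted p = 0.121), and passed none of them. Line #7 was named here after its direction was seen. Over all fits without 1 line the differences ran from -0.56 to -0.085 for Dnmt1, -0.72 to -0.245 for Uhrf1 and 0.093 to 0.60 for Tet3. The spread of the line differences for Dnmt1, Uhrf1, Tet2 and Tet3 (SD 0.85, 0.81, 0.84 and 0.92) was near the median over all tested genes (0.85). It was above that over tested genes with a mean of at least 100 (0.62), a class to which all 8 genes belong. The spread of Tet1 (1.80), Dnmt3b (1.43) and Dnmt3a (0.99) was above both medians, and that of Mbd2 (0.31) was below both.

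**Figure D4:**
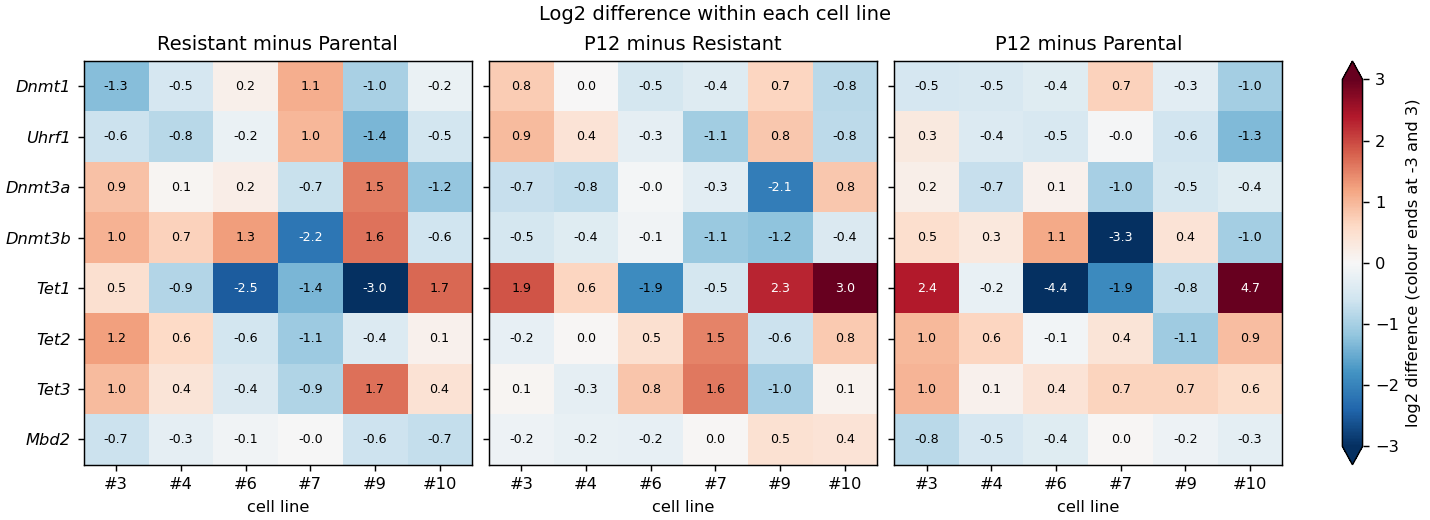
Log2 differences of the 8 tested genes (rows) within each of the 6 cell lines (columns) for 3 comparisons between states, as numbers on a colour scale that is red for higher and blue for lower values of the state named first. Between resistant and parental cells the columns of lines #9 and #7 have opposite colours for Dnmt1, Uhrf1, Dnmt3a, Dnmt3b and Tet3, and the row of Mbd2 is blue or near white throughout.

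The other genes around the machinery were taken from fixed lists, and most of their members did not pass either. The counts stand beside 7.73% of all tested genes that were higher and 7.9% that were lower in resistant cells, 15.6% in either direction. With 0 to 3 called genes a list, these counts are a description of the named genes and set no list apart. Of 8 further methyl-CpG readers 1 was higher and 0 were lower in resistant cells, with a list median of -0.42 on the log2 scale beside -0.0049 over all tested genes. The gene that rose was Mbd1, which works with the H3K9 methyltransferase Setdb1, from a median of 2263 normalized counts in parental to 3220 in resistant cells, by 0.78 (SE 0.26, limma adjusted p = 0.0468), in 5 of 6 lines.

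Of 10 measured maintenance partners 0 passed, with a list median of -0.40. Hells, the chromatin remodeller that opens nucleosomal DNA for maintenance, gave between 4071 and 8420 normalized counts in parental and between 1351 and 10089 in resistant cells, with a log2 difference of -0.52 (limma adjusted p = 0.371). Dppa3, which removes Uhrf1 from chromatin in oocytes, was listed at 0 in all but 1 sample. Of 9 measured genes in a list of further methyltransferase family genes and locus-specific protectors 7 were tested, and 2 fell in resistant cells. These were Trim28, the corepressor of KRAB zinc finger proteins that keeps imprinted genes and retroelements silent, and Nsd1, which sets the H3K36 dimethylation that Dnmt3a reads. Trim28 had a median of 13743 normalized counts in parental and 10181 in resistant cells, where all 6 values (7501 to 12127) lay below all 6 parental values (12425 to 20242), as the groups of 5.99% of all genes did not overlap. It fell by 0.54 on the log2 scale (SE 0.14, adjusted p = 0.0129) and was also lower at P12 than in parental cells, by 0.60 (SE 0.14), in 6 of 6 lines (6.96% of all genes) with an adjusted p of 0.0474. Nsd1 fell by 0.57 (SE 0.18, adjusted p = 0.0405).

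On the side of removal, 1 of 14 genes of 5-methylcytosine oxidation and base excision repair rose in resistant cells and 0 fell. This was Gadd45b, a stress-induced gene that has been linked to active demethylation and to p38 and JNK signalling. Gadd45b gave between 241 and 917 normalized counts in parental cells, between 2006 and 5333 in resistant cells and between 95.8 and 472 at P12, and the resistant samples overlapped neither group, as in 5.99% of all genes for resistant and parental and 2.45% for P12 and resistant cells. It rose by 2.53 (SE 0.39, limma adjusted p = 0.000354) in resistant cells, and between resistant and P12 cells it fell by 3.85 on the log2 scale (SE 0.39, adjusted p = 1.09e-05), in 6 of 6 lines each. Of all genes 8.99% were higher in 6 of 6 resistant lines and 8.2% were lower at P12 than in resistant cells in 6 of 6. Tdg, the glycosylase that removes the products of Tet oxidation, was likewise higher in value in 6 of 6 resistant lines (8.99% of all genes), with medians of 2269 and 3655 normalized counts, a log2 difference of 0.47 (SE 0.32) and an adjusted p of 0.359 that was 0.0255 when blocked by line.

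Of 18 tested genes of the methyl donor cycle, which supplies the cofactor of the methyltransferases, 1 rose and 2 fell in resistant cells, near the share of 15.6% over all genes. Mat2b, the regulatory subunit of the enzyme that makes S-adenosylmethionine, rose by 0.91 (SE 0.17, limma adjusted p = 0.00137), from between 1651 and 2243 normalized counts in parental to between 2341 and 4677 in resistant cells, with no overlap (5.99% of all genes), and between resistant and P12 cells it fell by 0.62 (adjusted p = 0.0288). Shmt1, which feeds the folate cycle from serine, fell by 1.18 (SE 0.31, adjusted p = 0.0148) and was higher again at P12 by 1.28 (adjusted p = 0.0165). Ahcyl2, a relative of S-adenosylhomocysteine hydrolase, fell by 1.30 (SE 0.42, adjusted p = 0.0389).

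Of 16 genes of 2-oxoglutarate supply and Tet partners 0 rose and 3 fell, where 7.9% of all genes fell and 15.6% passed in either direction. Idh1, the cytosolic isocitrate dehydrogenase that makes 2-oxoglutarate, had medians of 5518 normalized counts in parental, 1678 in resistant and 2734 in P12 cells, and fell in resistant cells by 1.35 (SE 0.29, limma adjusted p = 0.00478), in 6 of 6 lines (9.49% of all genes). Between P12 and resistant cells Idh1 differed by 0.56 (SE 0.29, adjusted p = 0.314). Sdha, a subunit of succinate dehydrogenase, fell by 0.54 (SE 0.15, adjusted p = 0.0179). Both enzymes act in central metabolism as well, and metabolites were not part of the table.

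Of 6 binders of unmethylated CpG 1 fell, Fbxl19 (by 0.60, SE 0.19, limma adjusted p = 0.0365), and of 13 genes of the NuRD complex 1 fell, the histone chaperone Rbbp7 (by 0.66, SE 0.21, adjusted p = 0.0395). In the fit blocked by line the counts between resistant and parental cells moved to 1 higher and 7 lower for 2-oxoglutarate supply and Tet partners, 1 higher and 5 lower for the methyl donor cycle, 4 higher and 0 lower for oxidation and base excision repair, 1 higher and 4 lower for the family genes and protectors, 0 higher and 1 lower for the maintenance partners, and 1 higher and 1 lower for the binders of unmethylated CpG, where 26% of all genes passed in this fit. Some genes stand in more than 1 list.

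**Figure D5:**
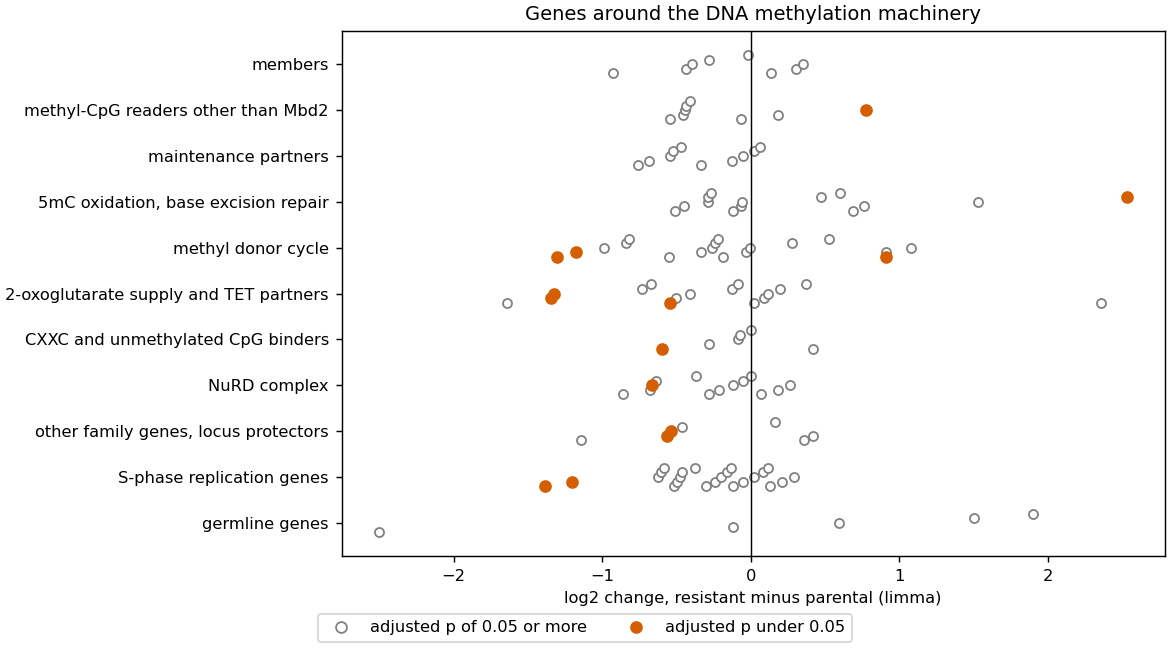
Log2 change between resistant and parental cells for each tested gene (points) of the 9 methylation genes and 10 further lists (rows), with filled orange points for genes with a limma adjusted p under 0.05. No point of the top row is filled, and the filled point furthest to the right is Gadd45b at 2.53.

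Germline genes that promoter methylation keeps silent in somatic cells were looked at as a separate list. Of 18 such genes measured, 5 reached the level for testing and 0 passed between resistant and parental cells, where 15.6% of all genes passed. An unadjusted p under 0.05 was reached by 3 of the 5 and by 29.2% of all genes. With the line as a block 1 was higher and 1 lower, where 26% of all genes passed. With 5 genes these counts are a description. Their levels were low throughout: Hormad1 was listed at 0 in all 21 samples, Stk31 reached 1.07, and the highest values were 96.9 normalized counts for Tdrd1, 91.2 for Mov10l1 and 85.4 for Brdt. Ddx4, the germ cell helicase, was over the value of 3 reads in 14 of 21 samples and reached 60.6.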

How the data were processed

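RNA was prepared by the authors with a stranded poly(A) kit and sequenced on more than 1 instrument model. The sources do not assign samples to instruments, and values within such batches cannot be given. Per the labels and the methods, Salmon 0.12 quantified transcripts after adapter removal (Skewer), TXImport 1.6 summed them to genes, and DESeq2 1.18 scaled the samples. The build is mm10, and the transcript annotation is not given in the sources used here. The deposited values are signal: gene-level counts normalized with DESeq2, which are not whole reads, and sum over isoforms. Raw counts could not be recovered (71.2% to 79.9% of low values lay within 0.1 of a whole multiple of 1 step), so no count test was run. The step gave the estimated depth, taking 1 scale factor per sample, and precision at low values is limited by it.

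Samples were grouped by their titles, and 21 columns matched 21 samples. Genes with at least 10 in at least 3 samples (19300 of 34478) were tested on log2(value + 1) with limma 3.58.1 (lmFit, contrasts, eBayes with a trend, R 4.3.3), in 1 fit of all samples without covariates, as the methods name none. Differences are on this scale, which understates changes of low genes. The code was tested on simulated data. The same cell line gives the states of a line, so the line was the block of the alternative fit. The mean correlation of deviations of same-line samples was 0.241 for resistant and parental, 0.457 for P12 and resistant and 0.316 for P12 and parental cells. No source says that cultures were replicated, so p-values of the main fit rest on the spread between lines. That fit treats the states of a line as separate samples. With the block, p-values rest on how far the differences between states varied over the lines.

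Exon lengths and positions came from GENCODE M21 (GRCm38, all 9 genes matched) and promoters from RefSeq (GRCm38.p6). The antisense genes of Dnmt3a, Dnmt3b and Tet2 reached at most 3.43 normalized counts. The 9 genes and all lists were chosen with earlier results of these data known. Named from each list were up to 4 genes with the largest change between resistant and parental cells among those that passed, plus Dppa3, Hells and Tdg, the 3 genes most like each tested member, and Dusp6, Trp53 and Cdh1 as checks. A few items that this rule named, and 1 allele of the mice, are not reported here. Germline genes and Dnmt3c named at their highest values were chosen after these were seen. Alternatives were pseudocounts of 0.5 and 8, no filter, a mean of at least 100, upper-quartile scaling, no trend, only the compared groups, the block, the thresholds of the study and leaving out each line.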

Additional observations from a re-analysis of the deposited data

Results flagged for a closer look

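In groups of 6 samples, a lowest or highest value was marked where its gap to the next value took more than 0.625 of the whole range (Dixon's 95% limit). Chance marks about 1 in 20 groups, and 2 of 56 checks were marked. The checks covered each gene in each group of 6 on 2 scales, and its resistant minus parental differences by line. Both scales use the same samples, so the checks are not independent. Dnmt3b at P12 was far lower in line #7, with 6.68 normalized counts, than in the other lines, a gap of 0.650 of the range on the log2 scale. Tet1 in parental cells was far higher in line #9, with 394 normalized counts, a gap of 0.718 of the range on the linear scale.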

How the results depend on the processing

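None of the 8 tested genes passed in any of the 5 comparisons under any alternative, and of the 374 log2 differences that an alternative moved, 342 kept their sign. The filters, the trend, the thresholds and keeping only the compared groups cannot move a difference. The block for the cell line changed no call among the 8 genes. The number of all genes that passed moved more. It was 3016 between resistant and parental cells, 5014 with the block, 1023 by the thresholds of the study and 1476 to 3280 when 1 line was left out. It was 1201 between P12 and resistant cells, 2454 with the block, 412 by the thresholds of the study, 547 with only the compared groups and 609 to 1510 without a line. It was 127 between P12 and parental cells, 1026 with the block, 36 with a mean of at least 100, 22 by the thresholds of the study and 10 to 481 without a line. It was 399 between P5 and resistant cells, 73 by the thresholds of the study, 49 with only the compared groups and 83 to 324 without a line. It was 9 between P5 and parental cells, 23 with the block, 5 with a mean of at least 100, 5 by the thresholds of the study, 3 with only the compared groups and 1 to 22 without a line. In the comparisons of resistant with parental and of P12 with resistant cells the count was over 1.5 times smaller without line #3, #4, #6 or #10, and between P12 and parental cells also without each of these, but larger without #9. Between P5 and resistant cells it was so without #3, #4, #6, #7 or #10, and between P5 and parental cells without #3, #6 or #7, but larger without #9. Leaving out a line or keeping only the compared groups leaves fewer samples, and for the block and the filter the cause was not tested.

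All differences that changed sign were of genes that did not pass. With upper-quartile scaling Dnmt1 between P12 and resistant cells was 0.041 and Tet1 between P12 and parental cells 0.019, while the median of all genes between P12 and resistant cells went from 0.02 to 0.11. With the block Tet1 between P5 and resistant cells was -0.054 and Tet2 between P5 and parental cells -0.010. Without 1 line, the resistant minus parental difference ran from -0.15 to 0.40 for Dnmt3a and from -0.27 to 0.20 for Tet2. The P12 minus resistant difference ran from -0.21 to 0.10 for Dnmt1, -0.17 to 0.22 for Uhrf1, -0.050 to 0.46 for Tet3 and -0.034 to 0.11 for Mbd2. The P12 minus parental difference ran from -0.61 to 0.27 for Dnmt3b and -0.98 to 0.84 for Tet1. The P5 minus resistant difference ran from -1.15 to 0.16 for Dnmt3b, -0.19 to 0.53 for Uhrf1, -0.46 to 1.89 for Tet1 and -0.091 to 0.17 for Mbd2. The P5 minus parental difference ran from -0.38 to 0.030 for Dnmt1, -0.99 to 0.96 for Dnmt3b, -1.67 to 1.05 for Tet1 and -0.0055 to 0.70 for Tet2. The share of a resistant change kept at P12 was not computed, because no gene of the 8 passed. Depth limits Dnmt3l, Dnmt3b of line #7 at P12 (6.68 normalized counts) and the lowest Tet1 values (3.58 and 3.79), which lay within a few reads of 0.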
